A study of Saccharomyces cerevisiae with 24 samples.

Results

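GRE2 (YOL151W) and 7 genes grouped with it, OYE2 (YHR179W), OYE3 (YPL171C), GTT2 (YLL060C), YML131W, AAD4 (YDL243C), AAD14 (YNL331C) and YAP1 (YML007W), were followed through hyperosmotic salt stress in budding yeast. They are 8 of the 7126 features measured. GRE2, OYE3, GTT2, YML131W and AAD4 were chosen by their FPKM values at 0 min, which stood higher in 3 signalling mutants than in the wild type, OYE2 and AAD14 as paralogues of OYE3 and AAD4, and YAP1 as the regulator named with them. All 8 had a mean of at least 1 FPKM (fragments scaled to transcript length and to the size of the library), as did 6359 features in all, and were tested. Because the 0 min libraries chose these genes, their differences between strains at 0 min and their changes from 0 min are given below as descriptions, without a test.

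Most of the products are known or putative enzymes that act on small molecules. Gre2 is an NADPH-dependent reductase of methylglyoxal and other aldehydes and ketones. Oye2 and Oye3 are old yellow enzymes, flavin-containing NADPH oxidoreductases that act on unsaturated aldehydes and ketones. Gtt2 is a glutathione S-transferase, which joins glutathione to electrophiles. YML131W encodes a putative oxidoreductase, and AAD4 and AAD14 encode putative aryl-alcohol dehydrogenases. Yap1 is a basic leucine zipper transcription factor of the oxidative stress response, controlled largely by oxidation and export from the nucleus. In yeast, high salt acts through the Hog1 kinase, which the Sln1 phosphorelay (Sln1, Ypd1, Ssk1) and the Sho1 branch both control, and phosphorylated Ypd1 keeps the first branch off.

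RNA-seq was run on 4 haploid strains in 0.4 M NaCl for 0, 10 and 20 min, with 2 libraries in each of the 12 groups. All 4 strains, the wild type (WT) included, derive from W303-1a and carry sho1::HIS3 and a reporter, leu2::LEU2-pSTL1-qVenus, so that "wild type" here lacks Sho1; they were mid-log cultures in synthetic complete medium. The Ypd1 changes are M20D in Mut1, M20D plus M92K in Mut2 and I13D in Mut3. The Sln1 changes E1101K, E1110K and S1179D are in all 3 mutants, and Mut3 has L1109K as well. The replacement cassettes carried TRP1 and HPH for YPD1, and URA3 and KanMX for SLN1. Whether a strain is 1 clone, and whether its libraries come from separate cultures, is not given in the sources used here, so p-values measure the spread between libraries, which may be technical.

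SHO1 was at 0 in 24 of 24 libraries. SLN1 lay between 12.4 and 25.0 FPKM and YPD1 between 32.7 and 86.6 FPKM, levels that say nothing of the point mutations. The library numbered 0 of Mut2 at 20 min stood apart, with structural RNAs at 72831 FPKM against 4103 to 14732 in the other 23. Of the a-cell markers that fit the MATa parent, STE2 ranged from 55.6 to 695 FPKM, and the 7 markers together summed to between 6464 and 32893 FPKM in WT, 2583 and 12659 in Mut1, 2805 and 11839 in Mut2, and 5623 and 31521 in Mut3. These ranges span all times, and in WT the sums were 21736 to 32893 FPKM at 0 min and 6464 to 8201 at 20 min. MFA2 and MFA1 make up most of each sum, with means of 7934 and 2049 FPKM over all libraries, against 182 for STE2. The markers were lower than in WT at 0 min for 5, 4 and 1 of 7 genes in Mut1, Mut2 and Mut3, at 10 min for 7, 6 and 0, and at 20 min for 3, 4 and 1. Of all features 1.56, 1.62 and 0.425% were lower at 0 min, 7.01, 6.67 and 0.676% at 10 min, and 3.41, 3.79 and 1.53% at 20 min. With the library number as a block the counts were 6, 6 and 4 at 0 min, 7, 7 and 4 at 10 min, and 4, 6 and 2 at 20 min, with 1, 1 and 0 higher at 20 min. The block called 15.6, 31.7 and 29.6% of all features at 0, 10 and 20 min, in either direction over the 3 mutants. The 4 alpha-cell markers summed to between 21.9 and 49.5 FPKM over all libraries, with STE3 and MF(ALPHA)1 at or near 0. The part of these shifts in the results below was not tested, and in bulk RNA fewer cells of a type and less RNA per cell cannot be told apart.

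Motif letters found upstream of the genes are shown here, before the expression values. Both strands of the 500 bases before each coding start were searched for the Yap1 site TTACTAA, which reads TTAGTAA on the other strand and lies in 11.8% of 6019 yeast upstream regions, and for the palindrome TTACGTAA, which lies in 1.25%. TTACTAA was found upstream of 4 of the 8 genes, OYE2, OYE3, GTT2 and AAD4, and TTACGTAA upstream of 3, GRE2, YML131W and OYE2, so that OYE2 holds both. Windows of 24 bases of the sacCer3 reference are written 5′ to 3′ on the gene's strand, with the motif in capitals.
OYE3, first site, chrXVI:227569-227592, minus strand: aagggctccTTAGTAAgcagtttg
OYE3, second site, chrXVI:227505-227528, minus strand: caataaccaTTACTAAgcacagtg
GTT2, chrXII:21923-21946, minus strand: tttcactgcTTACTAAttcattcg
AAD4, first site, chrIV:19005-19028, minus strand: tacaaacaaTTACTAAtatttttt
AAD4, second site, chrIV:18908-18931, minus strand: aacataaaaTTAGTAAgcagacct
OYE2, chrVIII:462166-462189, plus strand: ctcgtgtgcTTAGTAAagcaaaac
OYE2, chrVIII:462002-462025, plus strand: atatcTTACGTAAtgaacttccgt
GRE2, first site, chrXV:43462-43485, plus strand: aatgtccaTTACGTAAaagaaaaa
GRE2, second site, chrXV:43494-43517, plus strand: tgtacataTTACGTAAtagaatac
YML131W, chrXIII:9999-10022, plus strand: ggcgcacaTTACGTAAtagccaaa
The GRE2 sites lie 224 to 217 and 192 to 185 bases before the start, and the YML131W site 191 to 184 bases before it. TGACTAA, another Yap1 site (5.95% of upstream regions), TGACGT, a core letter string of CREB-like sites (13.4%), and GGCNGGC (6.25%) were found upstream of none of the 8 genes. AGGGG, the stress response element bound by Msn2 and Msn4 and present in 34% of upstream regions, was upstream of YML131W, AAD4 and YAP1. A match is a string of letters and not a shown binding site.

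GRE2 lies at chrXV:43694-44722 on the plus strand and was both raised in the mutants before salt and strongly induced by salt in every strain. At 0 min it stood at 63.7 and 94.8 FPKM in WT, 456 and 620 in Mut1, 582 and 608 in Mut2, and 489 and 720 in Mut3 (libraries 0 and 1 in that order here and below). At 10 min it stood at 2995 and 4068 FPKM in WT, 2822 and 3472 in Mut1, 2794 and 3362 in Mut2, and 3615 and 4628 in Mut3. At 20 min the values were 5096 and 6066 in WT, 3277 and 4016 in Mut1, 3168 and 3491 in Mut2, and 4762 and 5543 in Mut3. All 6 mutant libraries lay above both WT libraries before salt, WT overlapped each mutant at 10 min while Mut3 lay above Mut1 and Mut2, and Mut1 and Mut2 lay below WT and Mut3 at 20 min without overlap. The rise from 0 to 10 min was 44.3-fold in WT (log2 change 5.47 ± 0.25, SE), and the rises in Mut1, Mut2 and Mut3 were 5.88-, 5.14- and 6.88-fold. Values written as "-fold" are ratios of FPKM plus 1 throughout, while those written as "times" are ratios of mean FPKM. Before salt the mutants already held 15.2, 16.9 and 17.1% of the WT 10 min level, against 2.24% in WT itself.

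In salt, GRE2 showed no difference from WT that passed the test in any mutant. At 10 min the log2 differences were -0.16 in Mut1, -0.19 in Mut2 and 0.23 in Mut3, each with an SE of 0.25. At 20 min they were -0.62 (adjusted p = 0.179) in Mut1, -0.74 (adjusted p = 0.0879) in Mut2 and -0.11 (adjusted p = 0.987) in Mut3. With the library number as a block, the lower GRE2 level at 20 min passed in Mut1 (adjusted p = 0.000846) and in Mut2 (adjusted p = 0.000189), and after rescaling each library by median ratios it passed too (0.0234 and 0.00700). The level of Mut3 was higher than the mean of Mut1 and Mut2 by 0.56 on the log2 scale at 20 min (adjusted p = 0.140, or 0.000445 with the block).

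YML131W, at chrXIII:10198-11295 on the plus strand, followed GRE2 with a smaller range. It stood at 52.5 and 56.8 FPKM in WT before salt, 230 and 231 in Mut1, 267 and 248 in Mut2, and 296 and 326 in Mut3. At 10 min the values were 497 and 501 FPKM in WT, 597 and 602 in Mut1, 586 and 619 in Mut2, and 872 and 940 in Mut3. At 20 min they were 725 and 738 in WT, 638 and 685 in Mut1, 719 and 652 in Mut2, and 1061 and 1027 in Mut3. The libraries of a group lay close together, and Mut3 lay above every other strain at each time. The change from 0 to 10 min was 8.99-fold in WT (log2 3.17 ± 0.10) and 2.59-, 2.34- and 2.91-fold in Mut1, Mut2 and Mut3. The mutants held 46.3, 51.6 and 62.4% of the WT 10 min level before salt.

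YML131W was higher in Mut3 than in WT in salt, by 0.86 on the log2 scale at 10 min (adjusted p = 0.000279) and by 0.51 at 20 min (adjusted p = 0.0110). The 20 min call did not hold after median-ratio rescaling (adjusted p = 0.117) or without any one of the 4 libraries compared (0.0697 to 0.0913). In Mut1 and Mut2 the 10 min differences of 0.27 in each missed the threshold (adjusted p = 0.101 and 0.0998) and passed it with the library block (0.0101 and 0.00996). Mut3 also stood above the mean of Mut1 and Mut2, by 0.59 ± 0.09 at 10 min (adjusted p = 0.00139) and 0.63 ± 0.09 at 20 min (adjusted p = 0.000483).

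**Figure D1:**
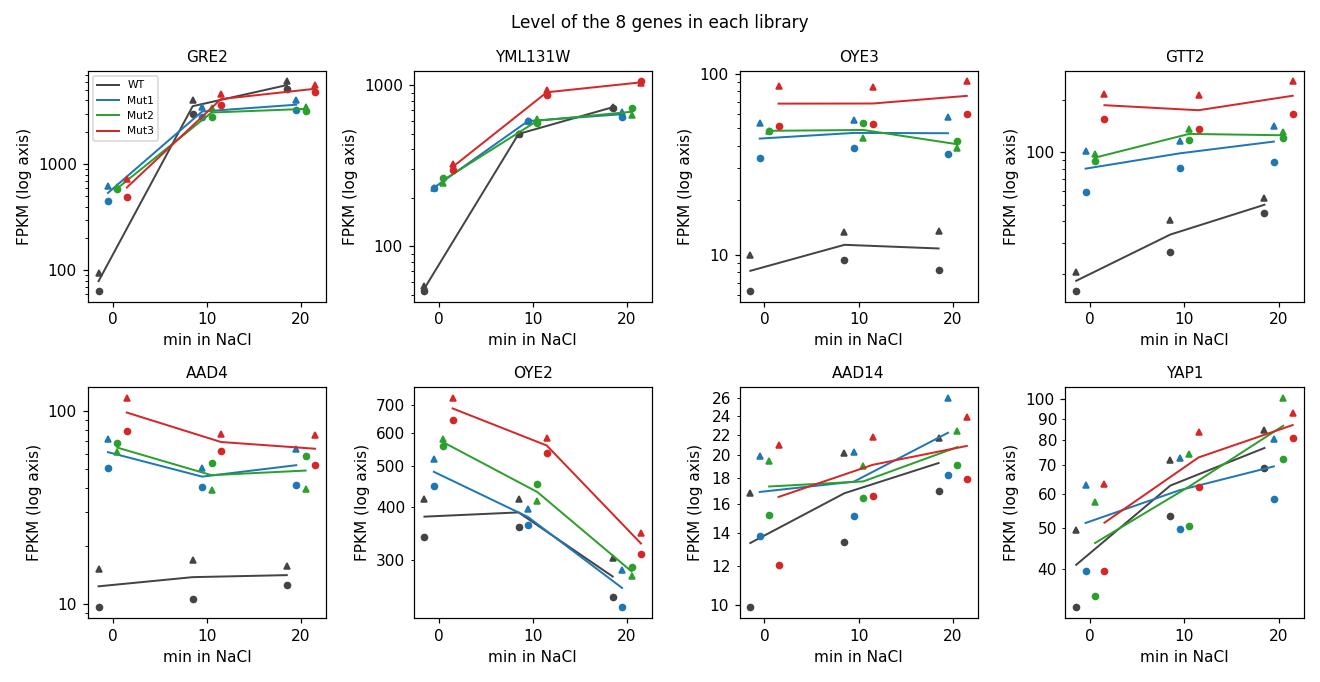
Level of each of the 8 genes in FPKM on a log axis against minutes in 0.4 M NaCl; circles are library 0, triangles library 1, lines join the means of 2 libraries and points are shifted sideways by strain. GRE2 and YML131W rise with salt in every strain, OYE3, GTT2 and AAD4 lie higher in the 3 mutants than in WT at each time, and OYE2 is lower at 20 min than at 10 min in every strain.

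OYE3, the old yellow enzyme at chrXVI:226169-227371 (minus strand), was raised in the mutants at every time and changed little with salt. It stood at 6.27 and 9.98 FPKM in WT, 34.0 and 53.4 in Mut1, 48.3 and 48.2 in Mut2, and 51.5 and 84.8 in Mut3 at 0 min. At 10 min it stood at 9.34 and 13.3 in WT, 38.8 and 55.1 in Mut1, 53.3 and 44.2 in Mut2, and 52.8 and 83.8 in Mut3. At 20 min the values were 8.16 and 13.4 in WT, 36.1 and 57.4 in Mut1, 42.5 and 38.9 in Mut2, and 59.9 and 90.6 in Mut3. No mutant library came near the WT range at any time, while neighbouring mutant groups overlapped throughout. At 10 min OYE3 was higher than in WT by 1.96 ± 0.36 on the log2 scale in Mut1 (adjusted p = 0.00230), by 2.03 in Mut2 (0.00207) and by 2.47 in Mut3 (0.00182), against 2.29, 2.46 and 2.91 before salt. At 20 min the differences were 2.02 (0.00299), 1.86 (0.00540) and 2.70 (0.000940). Without library 0 of WT at 20 min the Mut2 call was lost (adjusted p = 0.0597). The change from 10 to 20 min lay between -0.25 and 0.14 on the log2 scale in the 4 strains, each with an SE of 0.36.

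GTT2, at chrXII:21138-21839 on the minus strand, differed from OYE3 in that it also climbed in WT. It stood at 15.9 and 20.5 FPKM in WT before salt, 26.5 and 40.7 at 10 min and 44.9 and 54.8 at 20 min. The mutants held 58.8 and 102 (Mut1), 89.1 and 97.1 (Mut2) and 155 and 218 (Mut3) before salt. At 10 min they held 81.3 and 116, 118 and 137, and 136 and 213, and at 20 min 88.3 and 142, 120 and 130, and 167 and 256. The lowest mutant library before salt was above the highest WT library at 20 min. From 0 to 20 min the WT level rose 2.66-fold (log2 1.41 ± 0.34), and the mutants changed by 1.44-, 1.34- and 1.12-fold. At 10 min GTT2 was higher than in WT by 1.53 in Mut1 (adjusted p = 0.00734), 1.92 in Mut2 (0.00200) and 2.34 in Mut3 (0.00180). The call in Mut1 was lost without library 1 of Mut1 (adjusted p = 0.0896) or library 0 of WT (0.0843) at 10 min.

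By 20 min the GTT2 difference was smaller and less firm. It was 1.16 in Mut1 (adjusted p = 0.0541), 1.32 in Mut2 (0.0266) and 2.04 in Mut3 (0.00421). The Mut1 difference passed the threshold with the library block (8.14e-05), after rescaling (0.00586) and with protein-coding genes alone (0.0475). The Mut2 call was lost without any one of its 4 libraries (adjusted p = 0.0958 to 0.150). The Mut3 call was lost without library 1 of Mut3 (0.0648) or library 0 of WT (0.0553). The 10 to 20 min change in GTT2 passed in WT with the library block (adjusted p = 0.00736), and not without it (log2 0.58, adjusted p = 0.329).

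AAD4 lies near the end of chromosome IV, at chrIV:17577-18566 on the minus strand. It stood at 9.60 and 15.1 FPKM in WT, 50.4 and 71.8 in Mut1, 68.0 and 60.9 in Mut2, and 78.7 and 117 in Mut3 before salt. At 10 min the values were 10.7 and 16.9 in WT, 40.5 and 50.7 in Mut1, 54.0 and 38.9 in Mut2, and 61.9 and 76.0 in Mut3. At 20 min they were 12.5 and 15.7, 41.3 and 63.3, 58.6 and 39.5, and 52.1 and 75.1 in the same order. Every mutant library exceeded every WT library, and within the mutants the highest group was Mut3 before salt. AAD4 was higher than in WT by 1.68, 1.70 and 2.27 on the log2 scale in Mut1, Mut2 and Mut3 at 10 min (adjusted p = 0.00329, 0.00351 and 0.00174). At 20 min it was higher by 1.80, 1.71 and 2.08 (adjusted p = 0.00332, 0.00481 and 0.00285). At 20 min the Mut1 call was lost without its library 1 (0.0526) and the Mut2 call without its library 0 (0.0660), the library with the high structural RNA. AAD4 shares 91.1% of 975 aligned bases with AAD14 and 89.4% of 989 with AAD6, so its level is uncertain where reads could be split among these genes.

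Over the 8 genes, 3 were higher than in WT at 10 min in Mut1, where 6.73% of all tested features were higher, 3 in Mut2 (5.13% of all) and 4 in Mut3 (1.05% of all). The genes were OYE3, GTT2 and AAD4 in each, with YML131W in Mut3. Here and in the lists below, the mutants are compared with the same WT libraries at each time. Calls that recur over mutants are therefore not independent repeats. At 20 min the counts were 2 (3.84% of all), 3 (4.62%) and 4 (1.76%), GTT2 missing in Mut1. Without the library block or rescaling none of the 8 was called lower at either time, where 7.01, 6.67 and 0.676% of all features were lower at 10 min and 3.41, 3.79 and 1.53% at 20 min in Mut1, Mut2 and Mut3. With the library block 31.7% of all features were called at 10 min and 29.6% at 20 min, and calls under it are to be read against those shares. Under the block GRE2 was called lower at 20 min in Mut1 and Mut2, and YML131W in Mut1 and Mut2 at 10 min and GTT2 in Mut1 at 20 min were called higher, with the values given above. The block also called OYE2 higher in Mut3 at 10 min (log2 0.53, adjusted p = 0.00382, against 0.129 without it and 0.0498 after rescaling alone). The genes were chosen for being high in these strains before salt, so these counts describe how far that difference was still present in other libraries.

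**Figure D2:**
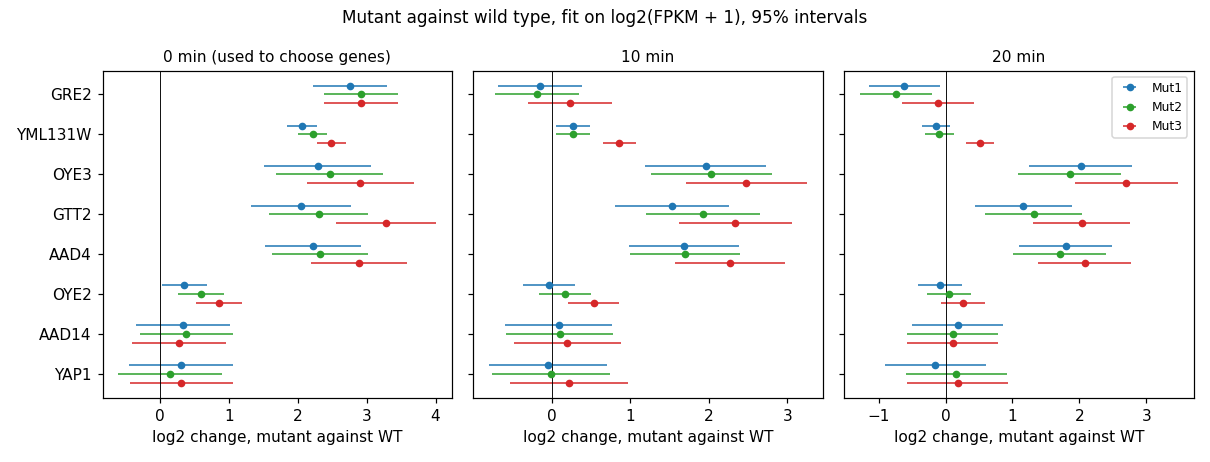
Log2 difference between each mutant and WT for the 8 genes at 0, 10 and 20 min, from the fit on log2(FPKM + 1), with 95% intervals. The 0 min panel was used to choose the genes and carries no test; OYE3, GTT2 and AAD4 lie to the right of 0 in every panel, GRE2 lies there at 0 min and on either side of 0 in salt.

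OYE2, the more abundant old yellow enzyme (chrVIII:462502-463704, plus strand), was the gene of the set called lower at 20 than at 10 min without the library block. Described without a test, the OYE2 mean at 10 min was 1.02 times its 0 min value in WT. In Mut1, Mut2 and Mut3 it was 0.781, 0.761 and 0.816 times that value. At 20 min the OYE2 mean was 0.721 times its 0 min value in WT and 0.530, 0.493 and 0.478 times in the mutants. The AAD4 mean in Mut1, Mut2 and Mut3 was also below its 0 min value, at 0.747, 0.720 and 0.704 times at 10 min and 0.856, 0.761 and 0.650 times at 20 min. OYE2 stood at 340 and 419 FPKM in WT, 449 and 520 in Mut1, 558 and 582 in Mut2, and 643 and 728 in Mut3 at 0 min. At 10 min the values were 359 and 418, 362 and 396, 455 and 413, and 537 and 582, in the same order of strains. At 20 min they were 245 and 302, 231 and 283, 288 and 274, and 309 and 347. The 10 and 20 min libraries did not overlap in any strain. From 10 to 20 min OYE2 fell by 0.51 on the log2 scale in WT (adjusted p = 0.0408), by 0.62 in Mut2 (0.0352) and by 0.77 in Mut3 (0.00372). The change in Mut1 was -0.56 (0.0694, or 0.00149 with the library block and 0.0273 after rescaling). The WT call was lost without library 0 of WT at 20 min (0.281) or either library at 10 min (0.0660 and 0.231), and the Mut2 call without any one of 4 libraries (0.0682 to 0.252).

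Counted over the 8 genes, 2 changed from 10 to 20 min in WT (14.2% of all features), 0 in Mut1 (3% of all), 1 in Mut2 (4.31%) and 1 in Mut3 (14.2%). The WT genes were OYE2 and YML131W, the second higher by 0.55 (adjusted p = 0.00210). OYE2 was the gene called in Mut2 and in Mut3. In Mut1, OYE2 was the gene with an unadjusted p under 0.05, a threshold for which no share of all features is given. GRE2 was higher at 20 than at 10 min in WT by 0.67, which missed the threshold (adjusted p = 0.0937) and passed it with the block (0.000232) and after rescaling (0.0137). The block raised the 4 calls to 11, and called 33.2% of all features. It added GRE2, GTT2 and YAP1 in WT, OYE2 in Mut1, YAP1 in Mut2, and GRE2 and YML131W in Mut3.

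The difference between a mutant's 10 to 20 min change and that of WT was called for 0 of 8 genes in each mutant by limma (0.204, 0.598 and 0.0315% of all features in Mut1, Mut2 and Mut3). At an unadjusted p under 0.05 there was 1 gene in each, YML131W, with differences of -0.41, -0.37 and -0.35 on the log2 scale. The shares above are for adjusted calls, and none is given for the unadjusted threshold. Each difference uses the same WT libraries, so the differences are not independent of one another. With the library block, which called 9.16% of all features, YML131W was called in Mut1 (adjusted p = 0.0239) and Mut2 (0.0298), and GRE2 in Mut2 (-0.55, adjusted p = 0.0281). From 0 to 10 min, described without a test, the mutants' log2 change minus that of WT was -2.92, -3.11 and -2.69 for GRE2 and -1.79, -1.94 and -1.63 for YML131W.

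The ratios within the 2 paralogue pairs are given as descriptions. OYE3 and AAD4 were chosen for their 0 min levels in the mutants, and OYE2 and AAD14 as their paralogues. The higher ratios of the mutants at 0 min therefore follow in part from that choice. OYE2 and OYE3 share 74.5% of 1142 aligned bases, and OYE3 stood at 2.11, 2.89 and 3.89% of the OYE2 level in WT at 0, 10 and 20 min. In Mut1 that share was 8.92, 12.3 and 18.0%, in Mut2 8.47, 11.2 and 14.5%, and in Mut3 9.83, 12.1 and 22.8%. OYE2 therefore remained the larger transcript in every group. AAD4 stood at 93.4, 81.6 and 73.2% of AAD14 in WT, and at 362, 259 and 234% in Mut1, 381, 266 and 241% in Mut2 and 606, 362 and 303% in Mut3. AAD14 (chrXIV:16118-17248, minus strand) itself lay between 9.91 and 26.1 FPKM over the 24 libraries, and its log2 differences from WT in salt lay between 0.09 and 0.19 with an SE of 0.32. Neighbouring groups of AAD14 overlapped at every step of their order.

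**Figure D3:**
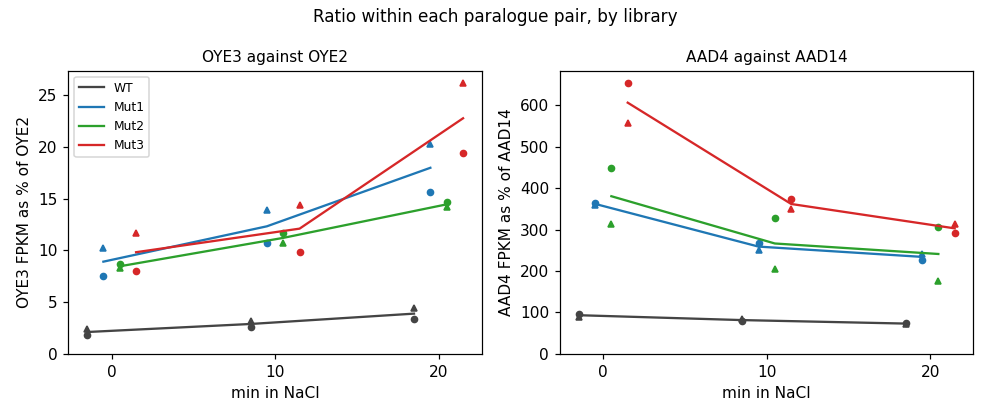
FPKM of OYE3 as a percent of OYE2 (left) and of AAD4 as a percent of AAD14 (right), per library (circles library 0, triangles library 1) with lines through the means, against minutes in NaCl. The mutants lie above WT in both panels at each time. The 0 min values were used to choose OYE3 and AAD4.

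YAP1 (chrXIII:253848-255800, plus strand), the regulator, differed little between strains. Its level was 32.5 and 49.3 FPKM in WT before salt, 53.3 and 72.1 at 10 min and 68.8 and 84.8 at 20 min. Across the mutants it lay between 34.5 and 63.1 FPKM before salt, 49.5 and 83.7 at 10 min and 58.2 and 101 at 20 min. The groups of different strains overlapped at 0 and 10 min, and at 20 min all pairs did but Mut1 and Mut3, where both Mut3 libraries lay above those of Mut1. None of its 6 log2 differences from WT in salt passed the test, and they lay between -0.15 and 0.22 with an SE of 0.35, so that the 95% interval at 10 min in Mut1, for example, ran from -0.80 to 0.71. A transcript level does not show the location or oxidation of Yap1.

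Among the mutants, Mut2 did not differ from Mut1 by limma in any of the 8 genes at 10 or at 20 min (0 at an unadjusted p under 0.05 at either time, with 0.0786 and 0% of all features called at an adjusted p under 0.05). The interval of that difference for OYE3 at 10 min ran from -0.70 to 0.84 on the log2 scale. Mut3 differed from the mean of Mut1 and Mut2 in 1 gene, YML131W, at 10 min (5.13% of all features called) and at 20 min (8.55%). With the library block (30.9% of all features) the calls were 4 at 10 min, GRE2, OYE2, GTT2 and YML131W, and 5 at 20 min, the same 4 with OYE3. The log2 difference was above 0 for each of these genes, 0.47 for OYE2 at 10 min and 0.80 for GTT2 at 20 min among them.

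The library number moved with the levels. Library 1 was above library 0 in 12 of 12 groups for GRE2, GTT2, AAD14 and YAP1. For OYE3 and AAD4 it was above in all 9 groups of WT, Mut1 and Mut3 and in 0 of the 3 groups of Mut2. OYE2 followed the first pattern in 10 of 12 groups and YML131W in 9. What the numbers stand for is not given in the sources used here.

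Other genes that Yap1 is known to activate were taken as a list of 27. This list and those below were chosen with earlier results of these data known. At 0 min they were compared in the same libraries that chose the genes above. Calls there describe these libraries and are not an independent test. Before salt 10 were higher than in WT in Mut1 (3.07% of all features were higher), 13 in Mut2 (2.89%) and 16 in Mut3 (1.2%), and 0 were lower in each (1.56, 1.62 and 0.425% of all). The list's median log2 difference was 0.54, 0.64 and 1.14, against medians over all features of -0.00, -0.02 and -0.01. In this list and those below, a gene is named for a mutant only if among its 4 largest called changes. A gene left out for a mutant may still have been higher there. SRX1, the sulfiredoxin that restores oxidised peroxiredoxins, was 7.18-fold higher in Mut1 (adjusted p = 8.22e-05) and 9.31-fold in Mut2 (3.51e-05). AHP1, a thiol peroxidase, was 3.61-, 3.85- and 4.11-fold higher, and YLR108C, of unknown function, 3.37-, 3.99- and 4.95-fold. HBN1, similar to bacterial nitroreductases, was 3.58-fold higher in Mut1 and 4.54-fold in Mut2. In Mut3 YNL134C, a putative oxidoreductase, was 6.40-fold and ATR1, a multidrug efflux pump, 4.33-fold higher. The ATR1 call was lost without library 1 of Mut3 (adjusted p = 0.0746) or library 0 of WT (0.0665). With the block the higher counts were 17, 19 and 20, and 1 gene was lower in Mut2, where the block called 15.6% of all features over the 3 comparisons.

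At 10 min 9, 11 and 11 of the 27 were higher (6.73, 5.13 and 1.05% of all features) and 1, 2 and 0 lower (7.01, 6.67 and 0.676%) in Mut1, Mut2 and Mut3, with list medians of 0.31, 0.53 and 0.60 on the log2 scale against 0.02, 0.01 and 0.00 over all features. With the block 15, 15 and 18 were higher and 5, 5 and 2 lower. HBN1 was 2.77-, 3.51- and 3.62-fold higher and GPX2, a glutathione peroxidase, 2.15-fold in Mut1 and 3.39-fold in Mut3. ECM4 (also GTO2), a glutathione transferase, was 4.25-fold higher in Mut1 and 4.09-fold in Mut2; those calls were lost without library 1 of the mutant (adjusted p = 0.0971 and 0.0938) or library 0 of WT (0.0574 and 0.0721). FRM2, another nitroreductase-like gene and the neighbour of HBN1, was 3.36-fold lower in Mut2 (adjusted p = 0.00488, and 0.0503 or 0.0696 without library 1 of Mut2 or of WT). TRX2, a thioredoxin, was 2.72-fold higher in Mut1 (lost without library 1 of Mut1, 0.0967, or library 0 of WT, 0.114) and AHP1 2.17-fold in Mut2. In Mut3 YNL134C was 3.16-fold and ATR1 3.98-fold higher, the second lost without library 1 of Mut3 (0.150) or library 0 of WT (0.119). At 20 min 7, 10 and 9 were higher (3.84, 4.62 and 1.76% of all features) and 1, 1 and 0 lower (3.41, 3.79 and 1.53%), and 14, 13 and 17 higher and 2, 6 and 0 lower with the block. The block called 31.7% of all features at 10 min and 29.6% at 20 min, in either direction over the 3 mutants.

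**Figure D4:**
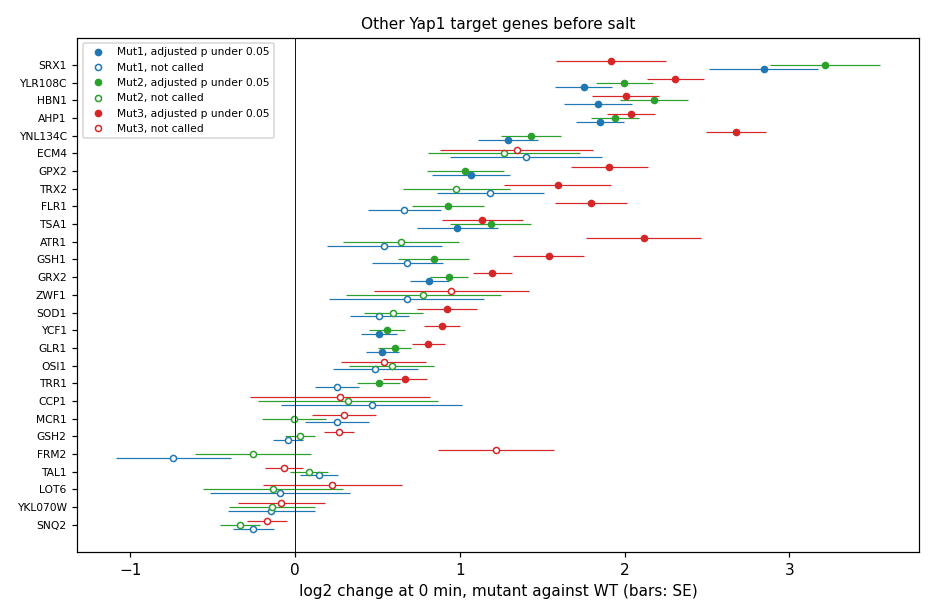
Log2 difference between each mutant and WT at 0 min for the 27 other Yap1 target genes, ordered by their mean difference, with SE bars. Filled points had an adjusted p under 0.05: 10 in Mut1, 13 in Mut2 and 16 in Mut3, all to the right of 0.

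A second list of 28 genes held sequence relatives of the 8 and other reductases and transferases, sharing YNL134C and ECM4 with the first. Before salt 7, 10 and 7 were higher in Mut1, Mut2 and Mut3 (3.07, 2.89 and 1.2% of all features) and 0 lower (1.56, 1.62 and 0.425%), with list medians of 0.45, 0.37 and 0.42 on the log2 scale against medians over all features of -0.00, -0.02 and -0.01. With the block 14 were higher in each and 1, 2 and 0 lower, where it called 15.6% of all features over the 3 comparisons. AAD6 was 6.23-, 7.60- and 13.8-fold higher (adjusted p = 0.00132, 0.000610 and 9.96e-05), and the adjoining YFL057C 5.24-, 6.59- and 12.4-fold. The reference joins AAD6 and YFL057C in a single pseudogene, although the counts of this list take them as separate genes. AAD6 shares 89.4% of 989 aligned bases with AAD4, itself chosen for its 0 min level, and 85.1% of 1116 with AAD14. The levels of AAD6 and YFL057C are therefore uncertain. Over all libraries AAD6 lay between 13.7 and 405 FPKM and YFL057C between 35.7 and 471. AAD3 (15.6 to 32.8), AAD10 (7.98 to 30.1) and AAD15 (1.45 to 10.1) were not called before salt in any mutant. ARI1, an aldehyde reductase related to GRE2, was 2.58-fold higher in Mut1. YNL134C was 2.45-fold higher in Mut1 and 2.70-fold in Mut2. YDL124W, an alpha-keto amide reductase, was 3.02-fold higher in Mut2, a call lost without library 1 of Mut2 (0.345) or either library of WT (0.36 and 0.0507). SFA1, a formaldehyde and alcohol dehydrogenase, was 1.96-fold higher in Mut3, a call lost without library 1 of Mut3 (0.141) or library 0 of WT (0.122). The mean of SFA1 before salt was 96.8 FPKM in WT, 148.6 in Mut1, 156.5 in Mut2 and 189 in Mut3.

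At 10 min 10, 8 and 4 of the 28 were higher (6.73, 5.13 and 1.05% of all features) and 0, 1 and 0 lower (7.01, 6.67 and 0.676%), with list medians of 0.24, 0.30 and 0.32 against medians over all features of 0.02, 0.01 and 0.00; with the block 14, 15 and 16 were higher and 4, 4 and 1 lower. AAD6 was 3.17-, 3.97- and 5.18-fold higher, although each of these calls was lost without library 0 of WT (0.134, 0.0682 and 0.113) or without library 1 of Mut1 (0.156), library 0 of Mut2 (0.0622) or library 1 of Mut3 (0.153). YFL057C was 2.93-, 4.21- and 4.29-fold higher, the last lost without library 1 of Mut3 (0.0554). ZTA1, a quinone oxidoreductase, was 2.15-fold higher in Mut1. YNL134C was 1.89-fold higher in Mut2 (lost without library 0 of WT, 0.0539). ADH6, an NADPH-dependent alcohol dehydrogenase, was 1.93-fold higher in Mut3 (lost without either library of Mut3, 0.0824 and 0.264, or library 0 of WT, 0.205). The mean of ADH6 at 10 min was 368.8 FPKM in WT, 565.8 in Mut1, 635.1 in Mut2 and 711 in Mut3. At 20 min 6, 7 and 5 of the 28 were higher (3.84, 4.62 and 1.76% of all features) and 1, 1 and 0 lower (3.41, 3.79 and 1.53%), and 11, 11 and 15 higher and 3, 5 and 0 lower with the block. Over all features the block called 31.7% at 10 min and 29.6% at 20 min, in either direction over the 3 mutants.

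Of 20 regulators, among them the other Yap factors, Skn7, Sko1, Hot1, Msn2, Msn4 and Hog1, 0 were called by limma in any mutant before salt, where 4.62, 4.51 and 1.62% of all features were called, and 4, 4 and 3 had an unadjusted p under 0.05. With the block 7, 6 and 2 were higher and 1, 2 and 1 lower. At 10 min YAP3, a Yap1 relative, was higher in Mut1 (1.75-fold, adjusted p = 0.0104) and Mut2 (1.87-fold, 0.00608), and MSN2, an activator of the general stress response, was lower (1.44- and 1.52-fold). The YAP3 calls were lost without library 0 of WT (0.108 and 0.0693) or library 1 of the mutant (0.128 and 0.0524). The MSN2 calls were lost without library 0 of the mutant (0.153 and 0.125), without library 1 of WT (0.149 and 0.0963) and, in Mut1, without its library 1 (0.0588). YBP1, which binds Yap1 and aids its oxidation, was higher 1.60-fold in Mut1 (0.00226) and 1.35-fold in Mut2 (0.0369), neither call holding after rescaling (0.0544 and 0.247) and the Mut2 call not holding without any one of 4 libraries (0.0600 to 0.239). With the block 5, 8 and 4 of the 20 were higher at 10 min and 3, 4 and 1 lower. In Mut3 0 of 20 were called at 10 min by limma, and 1 had an unadjusted p under 0.05. At 20 min, without the block, 0 were higher in any mutant and 1, 1 and 0 lower (3.41, 3.79 and 1.53% of all features), with 3, 3 and 2 at an unadjusted p under 0.05. With the block 4, 4 and 3 were higher and 3, 3 and 1 lower at 20 min. These block counts stand against 15.6, 31.7 and 29.6% of all features at 0, 10 and 20 min, in either direction over the 3 mutants. For the counts at an unadjusted p under 0.05 no share of all features is given, so they cannot be set against one.

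The 8 genes fell into patterns that can be read from their correlations over the 12 group means of log2(FPKM + 1), given as descriptions, since the groups share strains and times. The 0 min groups, whose values chose GRE2, OYE3, GTT2, YML131W and AAD4, are among the 12. Part of the likeness of these genes, to each other and to other features, therefore follows from that choice. GRE2 and YML131W had a Pearson r of 0.974, and OYE3, GTT2 and AAD4 had pairwise values of 0.900 to 0.973. GRE2 and OYE3 had an r of 0.276. Among all other tested protein-coding features, those most like GRE2 were PYC1 (0.989), HOR7 (0.981), YPR1 (0.980), DDR2 (0.976) and RCR2 (0.976). For YML131W they were DDR2 (0.978), SFA1 (0.975), DDR48 (0.967), PYC1 (0.958) and HOR7 (0.950). OYE3 was most like RTT102 (0.954), TRP1 (0.948), MCH4 (0.947), TSA1 (0.947) and ADH6 (0.943), of which TRP1 is a marker of the YPD1 cassette. GTT2 was most like MCH4 (0.956), GSH1 (0.933), ADH6 (0.930), NFU1 (0.902) and RTT102 (0.898). A Pearson r takes no account of the size of a change. Group means of RTT102 ran from 90.5 to 120.7 FPKM and those of NFU1 from 91.0 to 131.1, against 8.12 to 75.2 for OYE3 and 18.2 to 211 for GTT2.

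**Figure D5:**
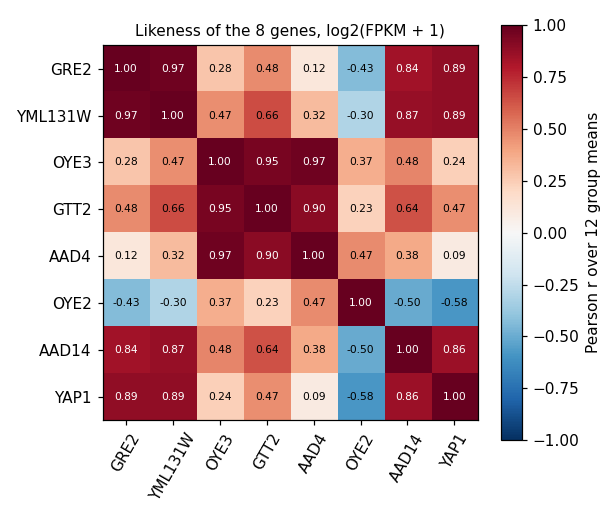
Pearson r between the 8 genes over the 12 group means of log2(FPKM + 1), coloured from -1 to 1. GRE2 and YML131W (0.974) form a block with AAD14 and YAP1, and OYE3, GTT2 and AAD4 (0.900 to 0.973) form another.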

How the data were processed

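Polyadenylated RNA was measured with stranded mRNA libraries, per the labels' protocols. FPKM values were made by the authors with TopHat2 and Cuffdiff on sacCer3, per the submitters' processing notes; the sources used here do not give versions, annotation or any scaling of libraries. Low values showed no whole-read steps, so depth, and the precision it gives, is unknown. Columns were assigned by name, and their library numbers, 0 and 1, are not tied to the labels' replicate numbers.

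FPKM plus 1 on the log2 scale was fitted to 12 group means over 24 libraries with limma 3.58.1 (R 4.3.3), using a variance trend, 12 residual degrees of freedom and a median prior of 1.88. The fit covered the 6359 features whose mean reached 1 FPKM. Tests are two-sided, adjusted by Benjamini and Hochberg over these features, and called at an adjusted p under 0.05. Same-numbered libraries deviated together (r from 0.230 to 0.601 over all 66 pairs of groups), so a fit blocked on library number is given where it changes a call. Spreads are SE of the fit. Copies were found with blastn 2.17.0, and upstream regions are from the R64 reference. The genes and lists were chosen with earlier results of these data known. Named list genes are up to 4 called genes per list and comparison with the largest change and a mean of at least 5 FPKM, given for 0 and 10 min. In simulated data for Mut1 against WT at 10 min on 6359 genes, 50% of 2-fold and 83% of 4-fold changed genes were recovered. Alternatives were another pseudocount (0.1), no filter, protein-coding genes alone, rescaling, the block and the compared groups alone.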

Additional observations from a re-analysis of the deposited data

How the results depend on the processing

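Depth is unknown, each group has 2 libraries, and the calls lean on a spread shared over all 12 groups. Fitted on the compared groups alone, limma made 0 calls in every family of comparisons; at an unadjusted p under 0.05 that fit gave 11 of 24 for the 8 genes against WT at 10 min (13 in the shared fit), 12 of 24 at 20 min (12), 4 of 32 for 20 against 10 min (6), 1 of 24 for the difference in that change (3), 7 of 32 between mutants (7), 47 and 40 of 81 for the Yap1 targets at 0 and 10 min (52 and 51), and 28 and 32 of 84 for the relatives (41 and 39). Against the shared fit's 4 calls for 20 against 10 min, the paired fit, blocked on library number, gave 11, and 9 with rescaling as well. For the difference in change, 0 became 3 and 2. Between mutants, 2 became 9 and 10, and 5 with rescaling alone. The block gave 45 of 84 for the relatives at 0 min (47 with rescaling, 24 in the shared fit), 60 of 81 for the Yap1 targets at 10 min (59, 34) and 54 of 84 for the relatives at 10 min (55, 23). Leaving out each library in turn gave 9 to 10 of 24 for the 8 genes at 10 min, 5 to 10 at 20 min (main 9; 5 without library 0 of WT at 20 min), 2 to 4 for 20 against 10 min (2 without library 0 or 1 of Mut3 at 10 min), 23 to 39 for the Yap1 targets and 14 to 24 for the relatives at 0 min (lowest without library 0 of WT), and 19 to 33 and 10 to 24 at 10 min (lowest without library 0 of WT). No value of the 8 genes changed direction among those called. A pseudocount of 0.1 and no filter changed no call of the 8 genes in salt. Rescaling moved the median of all features by at most -0.10 on the log2 scale. No share of all features is given for the counts at an unadjusted p under 0.05, after rescaling or with a library left out. Those counts therefore cannot be set against all features. The cause of each shift was not tested.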
